A study of Mus musculus with 6 samples.

Results

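The 37 genes described here encode the actin cytoskeleton, the intermediate filament protein vimentin, and the proteins that bundle actin, pull on it or tie it to the cell membrane. They were chosen by name, with earlier results of these data known, out of 18193 genes with a probe set of their own. Shares of members set beside shares of all probe sets are therefore descriptions, not an independent test. Every probe set whose only gene symbol is one of the 37 was used: 92 of the 45037 probe sets on the arrays, or of the 34945 with 1 symbol. Of the 92, 85 read above a low-signal limit of 37.2, the 40th percentile of all values, on at least 1 array, and each of the 37 genes had such a probe set. The other 7 (2 of Acta2 and 1 each of Tagln2, Tpm1, Cald1, Pxn and Anxa1) stayed at or under that limit on all 6 arrays and were not tested.

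The cells were A2.Snail ESCs, 1 line of mouse embryonic stem cells derived from A2lox cells, carrying a Snail transgene that doxycycline (dox) turns on. The cells were grown on irradiated mouse embryonic fibroblast (MEF) feeders and passaged once without them before differentiation in suspension in serum. All cultures received DKK, which blocks Wnt signaling, and the DKK + dox cultures also received dox at 250 ng/mL from day 2. RNA was taken 6, 12 and 24 h later (days 2.25, 2.5 and 3) and hybridised to 6 Affymetrix mouse expression arrays, 1 per condition and time. No array held dox-treated cells without the transgene, so the effects of dox and of Snail cannot be told apart.

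Snail is a transcription factor that represses epithelial genes and drives epithelial-to-mesenchymal transition (EMT). In EMT the cortical actin belt of an epithelial cell is exchanged for actin bundles anchored at focal adhesions, and vimentin filaments commonly replace keratin filaments. Actin filaments are covered by tropomyosin, caldesmon and calponin, crosslinked by filamin, alpha-actinin and fascin, pulled by nonmuscle myosin II, and linked to the membrane by ezrin, radixin and moesin (the ERM proteins). Many of these genes carry CArG boxes, the binding motif of serum response factor (SRF), whose MRTF coactivators enter the nucleus when actin polymerises.

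Values are the deposited intensities, and each difference is the DKK + dox value less the DKK value after log2(intensity + 20.6), which shrinks the change of dim probe sets. A difference at 1 time compares 2 arrays and has no replicate check; it was counted when it reached 2-fold. All 6 arrays entered a limma fit with a level for each time and a dox term scaled by the hours since dox, quoted as its value at 24 h with its SE. "Rose" and "fell" refer to an adjusted p under 0.05 in that fit over 26362 probe sets. The fit has 2 residual degrees of freedom, and its p tests the dox term against 0. The error comes from departures of the arrays from the trend, pooled in part over probe sets, not from the spread between cultures. A fitted value can exceed the measured one at 24 h where the difference was already large at 12 h. In probe set names, _a marks several transcripts of 1 gene, while _s and _x mark probes that can match other genes as well.

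The arrays had medians of 53.5 to 63.7, and 37.5 to 41.3% of their probe sets did not exceed the low-signal limit. The Snai1 probe set stayed under the limit on all 6 arrays (10.9 to 32.9), and it gives no check of the labels. The E-cadherin gene Cdh1 read 4481, 5957 and 6222 in DKK against 3465, 2868 and 3063 in DKK + dox at the 3 times. Pou5f1, the pluripotency factor Oct4, read 5672 to 6764 on the 6 arrays.

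RefSeq promoters (GRCm38.p6) were found for 33 of the 37 genes, 38 promoters in all, and the 250 bases before each start site were searched on both strands. Actb, Tagln, Pxn and S100a10 were not in the table. A CArG box, here CC and GG around 6 bases that are each A or T, was present in 5 of the 38 (Actg1, Cnn2, Myl9, Vil1 and Vcl), or 13.2%, against 1.47% of the 32851 promoters in the table. The E-box CAGGTG, or CACCTG on the other strand, to which Snail can bind, was present in 3 of the 38 (Myh10, Actn4 and Csrp1), or 7.89%, against 17.2% of all. The motifs do not overlap in these windows. Windows are shown for Cnn2 and Vcl, which hold a CArG box and have a probe set that rose, for Actg1 and Myl9, which hold one and have none, and for Ezr, the member that fell, which holds neither motif. Capitals mark the CArG box, which starts 56 bases before the start site in Cnn2, 227 in Vcl, 90 in Actg1 and 161 in Myl9.
Cnn2, chr10:79988350-79988599, plus strand: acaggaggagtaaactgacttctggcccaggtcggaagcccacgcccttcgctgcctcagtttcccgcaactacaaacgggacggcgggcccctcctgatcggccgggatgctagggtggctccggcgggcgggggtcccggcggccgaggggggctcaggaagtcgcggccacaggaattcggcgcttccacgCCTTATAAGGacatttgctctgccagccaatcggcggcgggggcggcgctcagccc
Vcl, chr14:20929148-20929397, plus strand: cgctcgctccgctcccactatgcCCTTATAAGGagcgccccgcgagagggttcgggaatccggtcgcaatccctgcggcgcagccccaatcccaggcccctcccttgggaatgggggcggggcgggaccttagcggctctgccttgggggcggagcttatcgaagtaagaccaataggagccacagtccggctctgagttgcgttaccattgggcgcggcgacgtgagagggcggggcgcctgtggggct
Actg1, chr11:120348496-120348745, minus strand: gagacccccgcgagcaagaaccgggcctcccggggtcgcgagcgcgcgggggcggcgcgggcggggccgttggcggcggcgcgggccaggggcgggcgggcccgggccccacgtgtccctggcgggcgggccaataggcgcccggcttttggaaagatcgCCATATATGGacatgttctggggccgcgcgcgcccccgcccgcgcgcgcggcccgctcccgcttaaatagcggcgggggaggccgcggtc
Myl9, chr2:156775214-156775463, plus strand: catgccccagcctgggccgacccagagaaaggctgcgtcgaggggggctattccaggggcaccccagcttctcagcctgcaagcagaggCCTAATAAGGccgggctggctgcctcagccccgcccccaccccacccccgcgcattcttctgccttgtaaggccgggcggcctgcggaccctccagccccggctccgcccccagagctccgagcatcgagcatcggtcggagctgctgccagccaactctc
Ezr, chr17:6782781-6783030, minus strand: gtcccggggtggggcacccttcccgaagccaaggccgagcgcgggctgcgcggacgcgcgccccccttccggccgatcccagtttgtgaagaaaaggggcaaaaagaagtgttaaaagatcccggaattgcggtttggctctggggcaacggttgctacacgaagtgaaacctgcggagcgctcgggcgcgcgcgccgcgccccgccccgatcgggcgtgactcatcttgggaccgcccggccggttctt
A match is a description of the letters, and its absence from a window of this length says nothing of the factor. The strict CArG pattern also passes over sites that differ from it by a single base. The Acta2 window, counted as having none, holds ccctatatgg and ccttgtttgg.

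The members centred near 0 at 6 h after dox, and most were higher with dox at 24 h. Their median difference was 0.02 at 6 h, 0.11 at 12 h and 0.38 at 24 h, against -0.03, 0.00 and 0.02 for all 26362 probe sets. At 24 h, 71 of the 85 lay above 0. In bulk RNA, fewer or more cells of a type and less or more RNA per cell cannot be told apart. No member reached 2-fold at 6 h in either direction, where 0.209% of all probe sets did so upward and 0.429% downward. At 12 h, 6 probe sets of Anxa2, Cald1 and Flnc were at least 2-fold higher, or 7.06% of the members against 1.2% of all, and both of Ezr were lower, or 2.35% against 1.98%. At 24 h, 11 probe sets of Acta2, Actb, Anxa2, Cald1, Flnc and Vim were at least 2-fold higher, or 12.9% against 2.95%, and again both of Ezr were lower, 2.35% against 1.84%, a share near that of all probe sets.

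In the trend fit 30 probe sets of 17 genes rose, or 35.3% of the members against 6.81% of all probe sets tested. The 2 of Ezr fell, or 2.35% against 5.12%. By role, all 3 probe sets of vimentin rose, 5 of 11 in the calponin family, 6 of 17 of tropomyosin and caldesmon, 5 of 12 crosslinkers, 5 of 11 focal adhesion and LIM proteins, 4 of 7 ERM linkers and 2 of 9 annexins and S100 proteins. None of the 4 actin and 11 myosin probe sets passed. Probe sets of 1 gene share their transcript, and with 1 per gene, 16 of 37 rose, or 43.2% against 8.32% of all genes, and 1 fell, or 2.7% against 6.38%.

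The count of 30 depends on the form of the fit: 37 rose without the 12 h pair (43.5% of the members against 7.57% of all probe sets), 27 without the 6 h pair (31.8 against 5.02%) and 10 without the 24 h pair (11.8 against 1.65%). With time as a straight line 9 rose (10.6 against 0.819%), without the intensity trend in the variance 7 (8.24 against 1.51%), and with a dox difference held constant over the 3 times 0, where 0.121% of all rose. Without the 24 h pair, the calls of Vim, Cald1, Anxa2, Ezr and 2 probe sets of Cnn3 were kept, and the other 20 were lost, with fitted values of -0.11 to 1.71 (limma adjusted p = 0.0604 to 0.851). Without the 6 h pair, 4 were lost, those of Actn1, Rdx and 1 probe set of Cnn3 (0.29 to 0.36, limma adjusted p = 0.0504 to 0.0728).

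**Figure D1:**
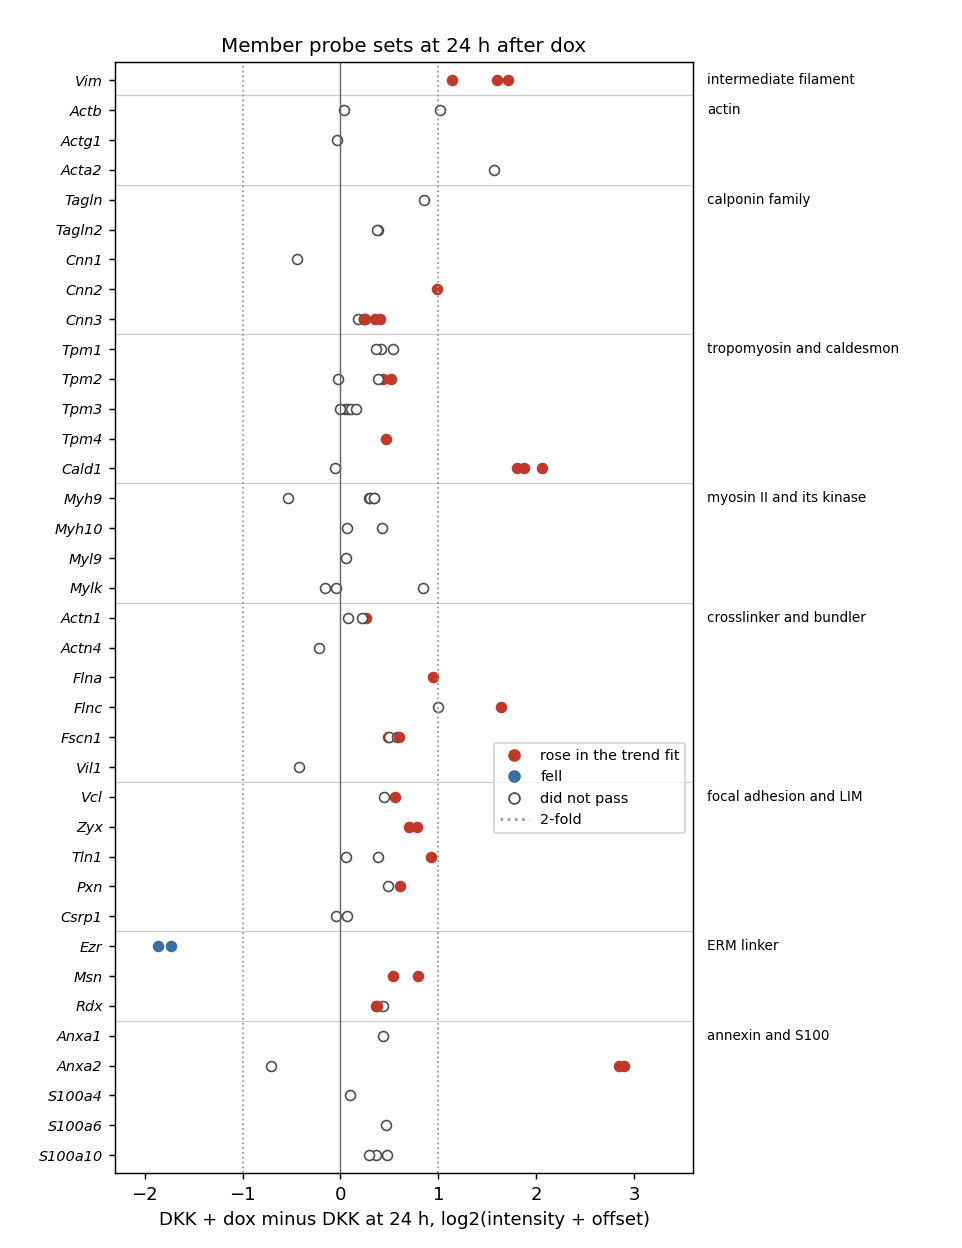
Each point is 1 of the 85 probe sets, in rows by gene and grouped by role, and the horizontal axis is DKK + dox minus DKK at 24 h in log2(intensity + 20.6) units. Red points rose and blue points fell in the trend fit over the 3 times, open points did not pass, and the dotted lines mark 2-fold; the points run from -1.87 (Ezr) to 2.90 (Anxa2), and most lie between 0 and 1.

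Vim encodes vimentin, the intermediate filament protein of mesenchymal cells. Its plain probe set 1450641_at read 3753, 2354 and 2012 in DKK against 4159, 3645 and 6156 in DKK + dox at 6, 12 and 24 h, the order of times used throughout. The 2 conditions were close at 6 h, and by 24 h the DKK array was the lowest of the 6 and the DKK + dox array the highest. The differences were 0.15, 0.63 and 1.60, and the fitted difference was 1.49 ± 0.11 (SE, limma adjusted p = 0.00059). The probe sets 1438118_x_at and 1456292_a_at followed the same order, with 24 h differences of 1.14 and 1.71, and both rose (limma adjusted p = 0.0011 and 0.0015). In DKK alone the 3 probe sets were lower at 24 h than at 6 h, by log2 differences of -0.89 to -0.60, so part of the gap at 24 h came from lower values without dox. The summed intensity of 10 feeder fibroblast markers ran 2520, 1180 and 1137 in DKK against 2126, 1492 and 2406 in DKK + dox. Fn1 (fibronectin) made up most of it (1914, 791 and 697 against 1669, 886 and 1858). Fn1 is not particular to feeders: the study used fibronectin as a mesenchymal marker and reported by RT-PCR that Snail raised it, also with DKK. Of the 6 markers past the filter, 4 were lower in DKK at 24 h than at 6 h and 5 were higher with dox at 24 h, but only Fn1 and Col5a1 rose, Col1a1 read 62.3 and 65.0 at 24 h, and Dcn was at -0.55. Lum, Fap, Postn and S100a3 stayed within the low-signal range on all arrays; their part in the Vim result was not tested.

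Of the 16 other intermediate filament genes measured, 3 rose and 4 fell, and their median difference at 24 h was -0.25. In the fit with 1 probe set per gene, 8.32% of all genes rose and 6.38% fell. Krt18, a keratin of simple epithelia, read 283, 631 and 968 in DKK against 140, 186 and 302 in DKK + dox, and it fell (-2.04 ± 0.30, limma adjusted p = 0.0054). Its partner Krt8 read 173, 448 and 616 in DKK against 184, 610 and 704 in DKK + dox, and it did not pass (0.32 ± 0.16, limma adjusted p = 0.243). The fitted values of the keratin pair thus had opposite signs, and the difference between them was not tested. Lmna, which encodes the nuclear lamins A and C, had a 24 h difference of 1.29, Des (desmin) 1.14 and Nefh (a neurofilament) -1.39, and each passed.

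**Figure D2:**
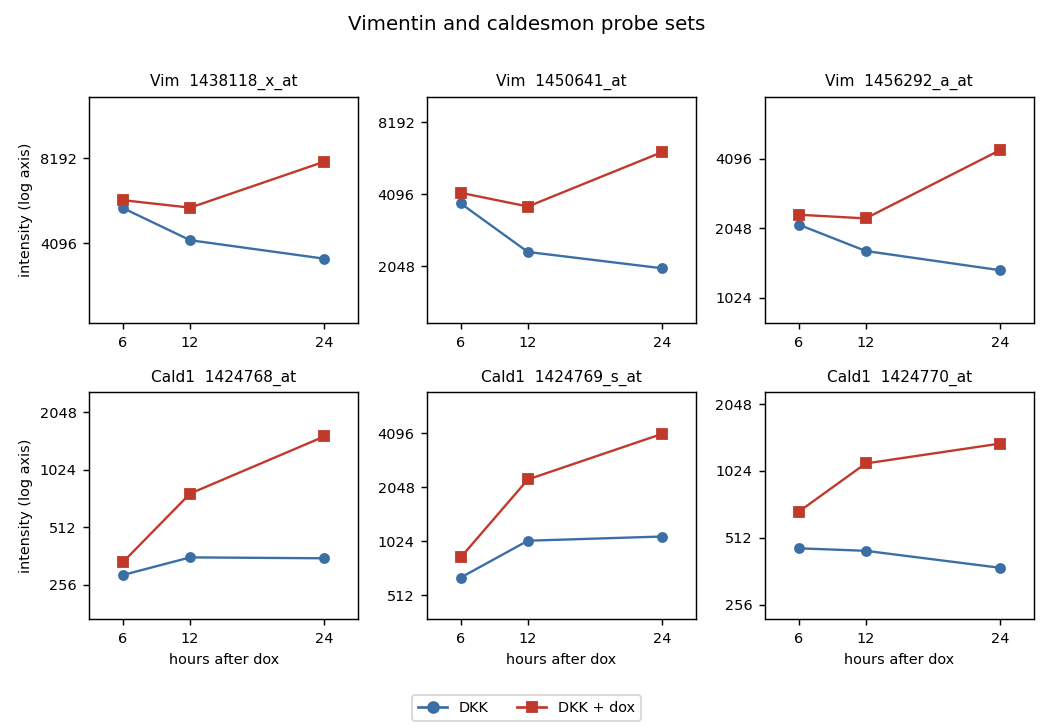
Log-axis intensity by hours after dox for the 3 probe sets of Vim and the 3 of Cald1 that rose, with blue circles for DKK and red squares for DKK + dox, 1 array per point. The Vim curves part because DKK declines and DKK + dox reaches its highest value at 24 h, while in Cald1 the DKK curve stays between 288 and 356 for 1424768_at and the DKK + dox curve reaches 1534.

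The smooth muscle actin and the cytoplasmic actins gave no call in the fit. Acta2 encodes smooth muscle alpha-actin, a marker of contractile and myofibroblastic cells. Its one probe set past the filter, 1416454_s_at, read 249, 213 and 172 in DKK against 196, 196 and 549 in DKK + dox. Only the DKK + dox array at 24 h stood above the others, by a difference of 1.57 from DKK, after -0.32 and -0.11 at 6 and 12 h. The fitted difference was 1.09 ± 0.34 (limma adjusted p = 0.0799), and without the 24 h pair it was -0.43. Actc1, the cardiac actin, which the _s type of probe set could in principle also match, read 8.19, 75.7 and 77.3 in DKK against 13.6, 89.8 and 385 in DKK + dox on its own probe set, and its part in the Acta2 reading was not tested.

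Actb and Actg1 encode the beta and gamma actins that every cell uses. The Actb probe set 1436722_a_at read 12604, 13516 and 13684 in DKK against 13028, 13817 and 14017 in DKK + dox, with differences of 0.05, 0.03 and 0.03. Actg1 read 11629, 12119 and 13029 in DKK against 11409, 11899 and 12679 in DKK + dox, with differences of -0.03, -0.03 and -0.04. Both lay near the top of the scale, where the highest reading of any probe set was 16333 to 17374 per array. The dimmer Actb probe set 1419734_at gave another picture: it read 321, 298 and 489 in DKK against 214, 209 and 1014 in DKK + dox, lower with dox at 6 and 12 h (-0.55 and -0.47) and higher at 24 h (1.02). It did not pass (0.50 ± 0.37, limma adjusted p = 0.456).

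Tagln (SM22 alpha) and Cnn1 (calponin 1) are SRF targets of smooth muscle, and both were higher from 12 h on without dox. Tagln read 120, 567 and 503 in DKK against 110, 497 and 925 in DKK + dox. It was higher with dox at 24 h alone (0.85) and did not pass (limma adjusted p = 0.160). Cnn1 read 134, 479 and 559 in DKK against 139, 373 and 406 in DKK + dox, and its 24 h difference was -0.44 (limma adjusted p = 0.0889). These 2 genes, both higher over time without dox, had differences of opposite sign at 24 h with it, and neither passed.

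The calponins of nonmuscle cells gave the calls of the family. Cnn2 read 460, 1031 and 872 in DKK against 458, 987 and 1744 in DKK + dox, with differences of -0.01, -0.06 and 0.98. It rose (0.72 ± 0.19, limma adjusted p = 0.0472), although the fitted value without the 24 h pair was -0.11. Cnn3, the calponin of embryonic and neural tissue, had 6 bright probe sets with small 24 h differences of 0.18 to 0.41, and 4 of them rose. Its probe set 1426724_at read 2957, 3185 and 3373 in DKK against 3272, 4025 and 4480 in DKK + dox. Tagln2 (transgelin 2) had 2 probe sets past the filter, at 0.37 and 0.39 at 24 h, and neither passed.

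**Figure D3:**
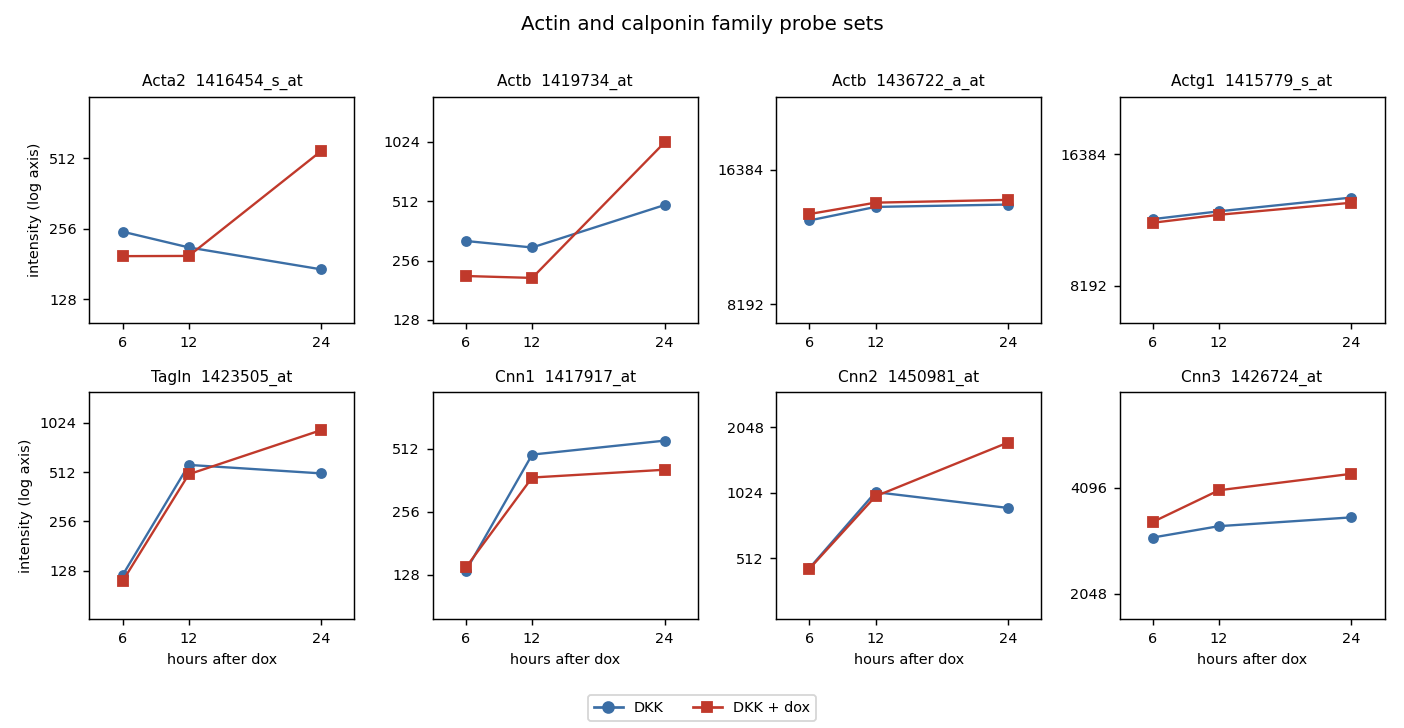
Log-axis intensity by hours after dox for the actin probe sets past the filter (Acta2, Actb and Actg1) and for 1 probe set each of Tagln, Cnn1, Cnn2 and Cnn3, with blue circles for DKK and red squares for DKK + dox, 1 array per point. Acta2 and the Actb probe set 1419734_at are lower with dox at 6 and 12 h and higher at 24 h, Tagln and Cnn2 are clearly apart at 24 h alone, Cnn1 is lower with dox from 12 h, and the bright Actb and Actg1 probe sets overlap.

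Cald1 encodes caldesmon, which binds actin and tropomyosin and restrains myosin, and it gave the lowest adjusted p of all 26362 probe sets. Its probe set 1424769_s_at read 644, 1032 and 1089 in DKK against 834, 2262 and 4057 in DKK + dox. The DKK + dox array was the higher of the pair at each time, by 0.36, 1.12 and 1.88, and the fitted difference was 1.92 ± 0.11 (limma adjusted p = 0.00053). The plain probe sets 1424768_at and 1424770_at also rose, with 24 h differences of 2.06 and 1.80. The probe set 1433147_at read 38.2 to 62.4 on the 6 arrays, with no call (24 h difference -0.06).

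Tropomyosins lie along the actin filament and set which proteins reach it. Tpm4 read 1319, 1994 and 2403 in DKK against 1453, 2379 and 3317 in DKK + dox, and it rose (0.47 ± 0.08, limma adjusted p = 0.0075). Of 4 Tpm2 probe sets, the 2 bright ones rose: 1419738_a_at read 1141, 1522 and 1417 in DKK against 1213, 1793 and 2034 in DKK + dox (0.50 ± 0.08, limma adjusted p = 0.0093). The 2 dim ones, at 25.7 to 65.7, did not pass. Tpm1 had 3 probe sets past the filter with 24 h differences of 0.37 to 0.54, of which none passed, and 1423049_a_at read 582, 1333 and 1310 in DKK against 612, 1189 and 1749 in DKK + dox. For Tpm3 the 5 probe sets had 24 h differences between -0.01 and 0.16, and 1427260_a_at read 4536 to 5057 on the 6 arrays. The 4 tropomyosin genes thus ranged from a modest increase in Tpm4 and Tpm2 to no call in Tpm1 and Tpm3.

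Nonmuscle myosin II is the motor that pulls on actin, and none of its 11 probe sets passed. The 5 probe sets of Myh9, the heavy chain IIA, had 24 h differences between -0.54 and 0.35. The brightest of them, 1420172_at, read 3650, 2939 and 2616 in DKK against 3103, 2618 and 3322 in DKK + dox. Its DKK and DKK + dox arrays thus changed order between 12 and 24 h. Myh10, the heavy chain IIB, had 24 h differences of 0.07 and 0.42, and Myl9, a regulatory light chain, one of 0.06. Myl9 read 131, 541 and 454 in DKK against 132, 447 and 474 in DKK + dox, so the large step from 6 to 12 h was present in both conditions. Mylk, the kinase that phosphorylates the light chain, had differences of -0.16, -0.04 and 0.84. The last of these came from 1425506_at, which was above the low-signal limit on 2 arrays and did not pass (limma adjusted p = 0.0843).

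Among the crosslinkers the filamins rose most. Flna encodes filamin A, which joins actin filaments into networks and binds integrins, and it read 642, 853 and 805 in DKK against 564, 1092 and 1564 in DKK + dox (0.82 ± 0.16, limma adjusted p = 0.0164). Flnc, the filamin of striated muscle, was dim: 1449073_at read 42.1, 36.1 and 35.0 in DKK against 47.9, 93.4 and 153 in DKK + dox. The DKK arrays at 12 and 24 h were under the low-signal limit, and the probe set rose (1.66 ± 0.23, limma adjusted p = 0.0047). The other Flnc probe set, 1447812_x_at, differed at 24 h alone, where it read 65.9 in DKK and 152 in DKK + dox. After the offset this difference was 0.999, just under 2-fold, and the probe set did not pass.

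Fscn1 encodes fascin, which bundles actin in filopodia, and Actn1 and Actn4 encode the nonmuscle alpha-actinins. For Fscn1, 2 of 4 probe sets rose, and the brightest, 1416514_a_at, read 3635, 5830 and 5995 in DKK against 4212, 6417 and 8384 in DKK + dox (0.46 ± 0.07, limma adjusted p = 0.0053). One of 3 Actn1 probe sets rose by a small amount: 1428585_at read 2136, 2858 and 2925 in DKK against 2286, 3402 and 3509 in DKK + dox (0.31 ± 0.08, limma adjusted p = 0.0340). Actn4 had negative differences (-0.17, -0.28 and -0.22) and no call (limma adjusted p = 0.0998). Vil1, the villin of microvilli, read 17.2 to 52.9, near the low-signal limit on all arrays, and had no call.

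Focal adhesions join actin to integrins, and 4 of the 5 genes listed for them had a probe set that rose. Zyx encodes zyxin, a LIM protein of tensed actin bundles. Both of its probe sets rose, and 1417240_at read 380, 726 and 647 in DKK against 464, 936 and 1062 in DKK + dox (0.72 ± 0.11, limma adjusted p = 0.0070). Tln1 encodes talin, which activates integrins, and its probe set 1448402_at read 296, 285 and 219 in DKK against 290, 394 and 435 in DKK + dox (0.87 ± 0.16, limma adjusted p = 0.0112). The 2 conditions were close in Tln1 at 6 h, and both later DKK + dox arrays were above all DKK arrays.

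Vcl encodes vinculin, the link from talin to actin, and Pxn encodes the adhesion scaffold paxillin. The Vcl probe set 1416156_at read 1063, 1965 and 1888 in DKK against 1087, 2060 and 2788 in DKK + dox, apart at 24 h alone, and it rose (0.46 ± 0.10, limma adjusted p = 0.0265). The Pxn probe set 1456135_s_at read 578, 357 and 291 in DKK against 579, 485 and 454 in DKK + dox, lower over time in both and less so with dox, and it rose (0.62 ± 0.14, limma adjusted p = 0.0239). The remaining Tln1, Vcl and Pxn probe sets did not pass, with 24 h differences of 0.06 to 0.49. Csrp1, a LIM protein of smooth muscle, had 24 h differences of -0.05 and 0.06 and no call.

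The ERM proteins tie actin to the plasma membrane, and here they did not share a direction. Ezr encodes ezrin, the ERM protein typical of epithelial microvilli. Its probe set 1450850_at read 1759, 2044 and 2348 in DKK against 1240, 600 and 694 in DKK + dox, and 1456725_x_at read 1507, 1449 and 1582 in DKK against 1118, 417 and 418 in DKK + dox. Every DKK + dox array was below every DKK array in both probe sets. The differences in the first were -0.50 at 6 h, -1.73 at 12 h and -1.73 at 24 h, so the whole drop was present by 12 h. Both fell, with fitted differences of -2.07 ± 0.25 and -2.17 ± 0.25 (limma adjusted p = 0.0029 and 0.0022).

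Msn encodes moesin, the ERM protein typical of mesenchymal and blood cells. Its probe set 1421814_at read 720, 1039 and 1033 in DKK against 702, 1410 and 1506 in DKK + dox, and 1450379_at read 243, 304 and 358 in DKK against 248, 363 and 635 in DKK + dox. The differences at 6 h were -0.035 and 0.029, and in both probe sets the DKK + dox arrays were higher at 12 and 24 h. Both rose, by 0.57 ± 0.12 and 0.70 ± 0.15 (limma adjusted p = 0.0210 and 0.0208). Rdx, which encodes radixin, had 2 of 3 probe sets that rose, and 1416179_a_at read 1297, 2212 and 2099 in DKK against 1403, 2482 and 2707 in DKK + dox (0.36 ± 0.08, limma adjusted p = 0.0218). The fitted differences of Ezr and of Msn and Rdx have opposite signs, each several SE from 0; a direct test of the difference between the genes was not run.

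**Figure D4:**
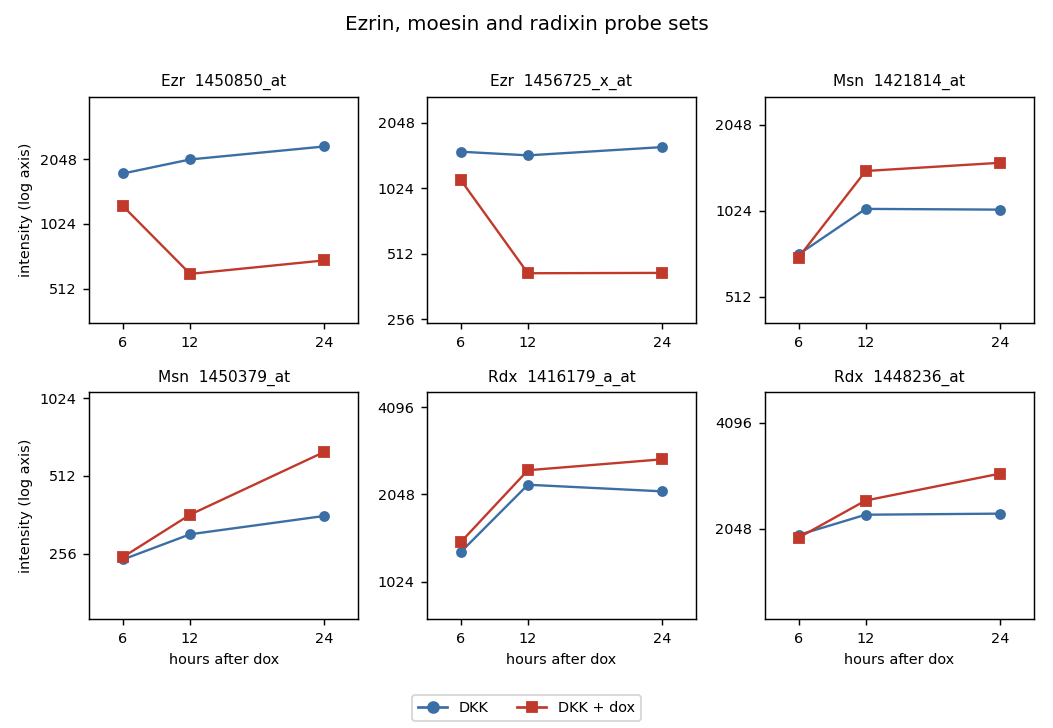
Log-axis intensity by hours after dox for the 2 probe sets each of Ezr, Msn and Rdx that passed, with blue circles for DKK and red squares for DKK + dox, 1 array per point. The Ezr curves are apart from 6 h and reach their lowest level with dox by 12 h (600 and 417), while those of Msn and Rdx start together and are higher with dox at 24 h.

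Annexins bind membranes in the presence of calcium, and Anxa2, which encodes annexin A2, had the largest difference of any member. The probe set 1419091_a_at read 589, 230 and 174 in DKK against 611, 719 and 1384 in DKK + dox, and 1437692_x_at read 929, 255 and 204 in DKK against 896, 861 and 1655 in DKK + dox. The conditions were close at 6 h, and by 24 h the DKK arrays were at their lowest and the DKK + dox arrays at their highest. The differences were 0.05, 1.56 and 2.85 in the first and -0.05, 1.68 and 2.90 in the second, and both rose (2.78 ± 0.24 and 2.84 ± 0.27, limma adjusted p = 0.00095 and 0.0013). The plain probe set 1437691_at went the other way: it read 62.2, 45.6 and 57.4 in DKK against 48.5, 53.9 and 27.1 in DKK + dox, close to the low-signal limit, with a 24 h difference of -0.71 that did not pass (limma adjusted p = 0.268). Which part of the transcript each probe set reads was not analysed here. The summed intensity of 14 parietal endoderm markers was 7085, 4409 and 3755 in DKK against 6825, 5193 and 7473 in DKK + dox. All 14 were lower in DKK at 24 h than at 6 h and higher with dox than without at 24 h. With dox at 24 h, 7 were at their highest of the 6 arrays (Sox7, Sox17, Pth1r, Col4a1, Col4a2, Plat and Sparc), whereas Srgn read 294 there after 1536 at 6 h, and their part in the Anxa2 result was not tested.

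The S100 proteins are small calcium-binding partners, and S100a10 is the subunit that pairs with annexin A2. S100a10 did not follow Anxa2: 1416762_at read 1765, 736 and 555 in DKK against 1748, 615 and 782 in DKK + dox, lower after 6 h in both conditions, with a 24 h difference of 0.48 and no call (limma adjusted p = 0.376). S100a6 read 1922, 326 and 205 in DKK against 1801, 418 and 291 in DKK + dox, and Anxa1, annexin A1, read 866, 175 and 81.9 in DKK against 786, 206 and 117 in DKK + dox. Their 24 h differences were 0.47 and 0.43, and neither passed (limma adjusted p = 0.0624 and 0.175). S100a4, often used as a fibroblast marker, read 1412, 627 and 718 in DKK against 1135, 678 and 769 in DKK + dox, with a 24 h difference of 0.10 and no call. Probe sets of S100a10, S100a6 and Anxa1 were thus at least 2-fold lower at 24 h than at 6 h in both conditions. For S100a4 these differences were smaller (-0.96 in DKK and -0.55 in DKK + dox), and 2 probe sets of Anxa2 were lower in DKK and higher in DKK + dox.

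**Figure D5:**
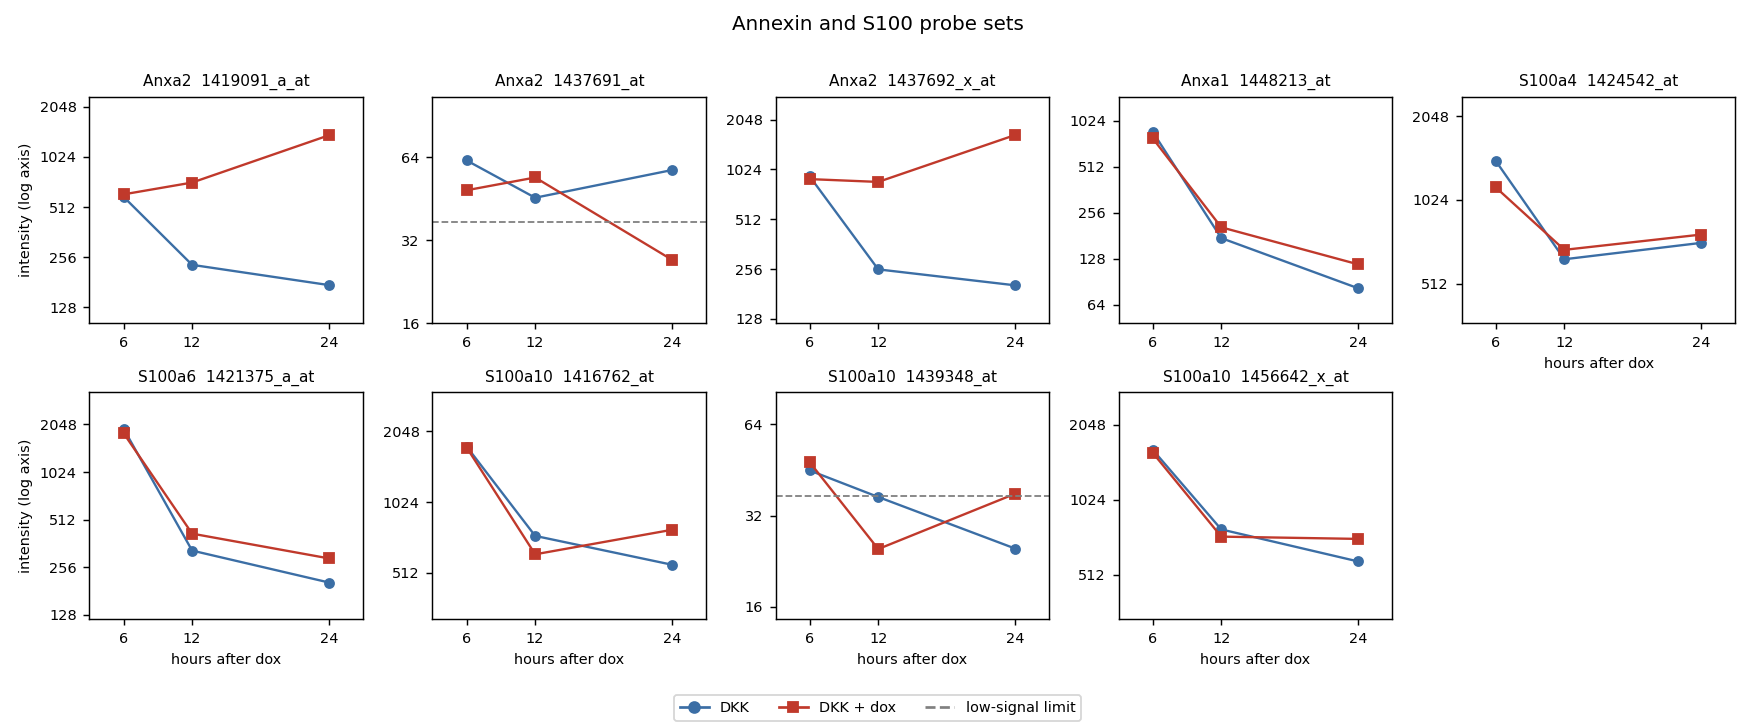
Log-axis intensity by hours after dox for the probe sets of Anxa2, Anxa1, S100a4, S100a6 and S100a10 past the filter, with blue circles for DKK, red squares for DKK + dox, 1 array per point, and a dashed line at the low-signal limit of 37.2. For 2 Anxa2 probe sets the DKK curve drops and the DKK + dox curve ends at 1384 and 1655, the third stays near the limit, as does 1 of S100a10, and the bright S100 and Anxa1 probe sets drop in both conditions.

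The members also differed over time within each condition, which is a comparison of 2 arrays with no test. From 6 to 24 h in DKK, 8 probe sets were at least 2-fold higher (9.41%, against 2.18% of all), those of Cnn1, Tagln, Myl9, Csrp1, Tpm1, Fscn1 and Actn1, and 6 were lower (7.06%, against 3.77%), those of Anxa1, Anxa2, S100a6 and S100a10. In DKK + dox over the same hours, 28 probe sets of 20 genes were at least 2-fold higher (32.9%, against 5.5%) and 5 were lower (5.88%, against 3.27%), those of Anxa1, S100a6, S100a10 and Ezr. Between 12 and 24 h no member reached 2-fold in either direction in DKK. In DKK + dox 1 probe set each of Acta2, Actb, Fscn1, Flnc and Myh9 was higher. The share of all probe sets is not given here for these hours, so these counts cannot be called particular to the members. The median member difference from 12 to 24 h was -0.02 in DKK and 0.21 in DKK + dox, against 0.01 and 0.05 for all probe sets. The climb of Cnn1, Tagln, Myl9 and Csrp1 was thus present without dox, and that of Cald1, Acta2 and Flna reached 2-fold with dox only; the 2 courses share no array, but each rests on single arrays.

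The genes around the members were read from 3 lists, each gene on its brightest probe set. In the fit with 1 probe set per gene, 8.32% of all genes rose and 6.38% fell. Of SRF and its coactivators 2 of 7 rose, Fhl2 and Wwtr1 (24 h differences 0.89 and 0.52). Srf itself read 224, 432 and 379 in DKK against 265, 513 and 411 in DKK + dox and did not pass (limma adjusted p = 0.416). Its actin-regulated coactivator Mrtfa was at -0.10 at 24 h and Mrtfb at 0.58, and neither passed.

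Of 30 genes of actin assembly and turnover, 9 rose and 1 fell. Over all genes, the fit with 1 probe set per gene gave 8.32% that rose and 6.38% that fell. Tmsb4x, the thymosin that holds actin monomers, read 3991, 2738 and 1882 in DKK against 3903, 3716 and 5618 in DKK + dox, a course like that of Vim. Gsn, which severs filaments, had a 24 h difference of 1.55 and Cotl1 one of 1.04, and both rose. Diaph1, a formin that elongates actin, fell (-0.65 ± 0.11, limma adjusted p = 0.0082). Of 22 other contractile and adhesion proteins, 4 rose, with the zyxin relative Lpp at 1.51 at 24 h.

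Markers of cell types that embryoid bodies could hold moved with some of these results. Of 7 smooth muscle markers past the filter 1 rose (Des), and Myocd, the smooth muscle coactivator, read 73.0 to 143. Of 6 heart and skeletal muscle markers past the filter 1 rose, Actc1 (1.69 ± 0.31, limma adjusted p = 0.0127), while Tnnt2, Tnnc1, Tnni1 and Ryr2 did not exceed the low-signal limit on any array. In the fit with 1 probe set per gene 8.32% of all genes rose, so 1 gene in lists this short says little of them.

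Of 14 parietal endoderm markers 7 rose, among them Sox7, Sox17 and Col4a2. Gata4 (24 h difference 0.38), Gata6 (0.06), Lama1 (0.54) and Lamb1 (0.27) were among those that did not pass. Sox17 is also an epiblast marker in the study. Of 10 visceral endoderm markers past the filter 2 fell, Foxa1 and Apoe. The 12 measured summed to 2764 to 4407 in DKK and 2041 to 4087 in DKK + dox, with Apoe alone at 1931 to 2746 and 1182 to 2580. Of 9 pluripotent cell and epiblast markers 5 fell (sums 34730 to 40203 and 29721 to 32162). In the fit with 1 probe set per gene, 8.32% of all genes rose and 6.38% fell. Summed over all those measured, smooth muscle markers ran from 495 to 634 in DKK and from 554 to 721 in DKK + dox. Heart and skeletal muscle markers ran from 541 to 673 and from 532 to 887. The part of these cell types in the members' differences was not tested.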

How the data were processed

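Per the labels and the study's methods, RNA of A2.Snail ESCs was hybridised to 6 arrays, and the authors normalized and modeled these in dChip. Deposited intensities are linear, with a floor of 1. Its version and model form are not stated in the sources read. The number of arrays limits the precision.

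Probe sets with 1 gene symbol in the platform annotation were used (34741 of 34945 matched RefSeq by Entrez ID). After log2(intensity + 20.61), 20.61 being the pooled 25th percentile, limma 3.58.1 in R 4.3.3 fitted the 26362 probe sets whose highest value exceeded 37.19, with 4 coefficients, an eBayes intensity trend (prior degrees of freedom 6.05) and Benjamini-Hochberg adjustment. The code was tested on simulated data. Listed genes were read on the probe set with the highest mean, and the 4 per list with the largest 24 h difference could be named. Their calls are from the fit over 26362 probe sets. The shares of all genes set beside them are from a separate fit over 14755, 1 per gene, with its own adjustment. Krt8, Mrtfa, Diaph1, Myocd, Pou5f1, Col1a1, Col4a1, Plat, Sparc, Srgn and the markers under the limit were named outside this rule, after their values were seen. The same holds for Gata4, Gata6, Lama1 and Lamb1. Members and lists were chosen with earlier results of these data known. The result of 1 pathway list is not reported here. Alternatives varied the offset, filter, normalization, probe set choice, fold threshold, model and left-out time.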

Additional observations from a re-analysis of the deposited data

Results flagged for a closer look

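The Actb probe set 1419734_at had dox differences of opposite sign at 2 times: -0.55 at 6 h and 1.02 at 24 h on the log2 scale. Each is a difference of 2 single arrays, and the change between the times was not tested.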

How the results depend on the processing

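Limits come first from the design, with 1 array per condition and time, and from signal, since 7 of 92 probe sets never exceeded the low-signal limit. With only plain probe sets (48 members), 5 reached 2-fold upward at 24 h (10.4% against 3.02% of all), 1 downward (2.08 against 1.85%), 14 rose (29.2 against 6.14%) and 1 fell (2.08 against 4.54%). With 1 probe set per gene (37), the values were 4 (10.8 against 3.12%), 1 (2.7 against 2.2%), 16 and 1. Both settings test fewer probe sets. At 1.5-fold, 22 were higher (25.9 against 8.49%). With a difference constant over the 3 times, 0 rose and 0 fell (limma adjusted p over all probe sets at lowest 0.0370, with 32 rising and 127 falling and 4818 at an unadjusted p under 0.05). With time as a straight line 9 rose, without the intensity trend 7 rose and 0 fell (397 and 128 of all), and without the 24 h pair 10 rose; the cause was not tested. Leaving out the 6 h pair gave 27 and the 12 h pair 37. Without the 24 h pair the fitted differences of Actb 1419734_at (-1.19), Acta2 (-0.43) and Cnn2 (-0.11) changed sign. The other 44 summary values moved by less than 1.5 times or their spread. The Cald1 and Anxa2 calls failed only with the constant difference among the settings run, and the Ezr calls failed there and without the intensity trend. Vim 1450641_at failed only with the constant difference, while Vim 1438118_x_at and 1456292_a_at also failed without the intensity trend. Acta2 passed in 4 of its 14 alternatives and Actb 1419734_at in 1 of 14. The fit already pairs the DKK and DKK + dox arrays of each time through its level per time, and the fit with time as a straight line drops that pairing.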
